A study of Sus scrofa with 9 samples.

Results

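The genes described here are those of fibroblast growth factor (FGF) signaling: the ligands, their receptors and coreceptors, binding proteins, docking adaptors, feedback inhibitors and ETV transcription factors. They were chosen by symbol from the deposited expression table, which gave 38 genes of 34580 listed. They comprise 17 FGF genes, the 4 receptors FGFR1 to FGFR4, the coreceptors KL and KLB, the binding proteins FGFBP1 and FGFBP3, the adaptors FRS2 and FRS3, 8 feedback inhibitors (SPRY1 to SPRY4, SPRED1 to SPRED3 and DUSP6) and the 3 factors ETV1, ETV4 and ETV5. The 17 FGF genes are grouped as ligands by symbol, although intracellular FGFs such as FGF11 and FGF14 are among them. FGF1, FGF8 and FGFRL1 were not analysed here. RNA was taken from whole mandibular deciduous molar germs (Dm3) of miniature pig fetuses. Embryonic day 40 (E40) stands for the cap stage, day 50 (E50) for the early bell and day 60 (E60) for the late bell, and each stage has 3 libraries. The animals were not treated or modified, and the stages differ in fetal age alone as far as the labels say. A whole germ holds epithelium and mesenchyme together, and in such RNA fewer cells of a type and less RNA per cell cannot be told apart. The labels do not say whether the libraries of a stage came from separate litters or pooled germs, so p-values measure the spread between these samples.

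FGF ligands bind receptor tyrosine kinases with the help of heparan sulfate or of a klotho coreceptor. The receptors act through the adaptors FRS2 and FRS3 on RAS and the MAP kinases, which switch on ETV factors and, as a brake, the sprouty and SPRED inhibitors. In mouse molars, FGF4, FGF9 and FGF20 come from the enamel knots, the epithelial signaling centers that set the cusps. FGF3 and FGF10 come chiefly from the dental mesenchyme beneath them and signal back to the epithelium. Loss of sprouty genes in mice gives extra teeth.

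The 9 libraries fell into a deep and a shallow set. The whole reads recovered from the FPKM values (fragments scaled to transcript length and library depth) came to between 13361726 and 16063566 in the 3 E50 libraries and E60 library 1, and to between 681667 and 1204263 in E60 libraries 2 and 3 and all of E40. For the step from E40 to E50, stage and set therefore cannot be told apart. All 3 E60 libraries carried the late bell transcripts, since the enamel gene AMBN had 10410.0, 2181 and 5371 FPKM there and at most 6.48 FPKM in any other library. Of 7 dental epithelial markers 6 were detected and CDH1 was listed at 0 in every library, and all 6 markers of dental mesenchyme and odontoblasts were detected. The epithelial markers, AMBN among them, summed to 3326 to 4775 FPKM at E40, 2200 to 3117 at E50, 14319 in E60 library 1 and 3625 to 9470 in E60 libraries 2 and 3. The mesenchymal and odontoblast markers summed to 991 to 1494, 2560 to 2982, 3052 and 944 to 1908 FPKM in the same order. Of 5 skeletal muscle markers 3 were detected and CKM was listed at 0, and their sum was at 38.6 to 59.7 FPKM at E40, 4.70 to 5.96 at E50, 3.36 in E60 library 1 and 8.09 to 9.59 in E60 libraries 2 and 3. The 3 endothelial markers listed summed to 17.9 to 20.9, 50.8 to 55.0, 61.1 and 16.3 to 28.3 FPKM in the same order, and the 3 erythroid markers listed to 225 to 387, 727 to 1025, 673 and 91.9 to 343. Their part in the results below was not tested. Every stage comparison is therefore given over all 9 libraries and over the 8 without E60 library 1, and E60 is also compared with the earlier stage of the same depth set.

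Of the 38 genes, 34 were above 0 in at least 1 library and 30 passed the filter of 1 FPKM in 2 libraries. FGF7, FGFBP3, DUSP6 and ETV5 were listed at 0 in all 9 libraries, as were 5617 of the 34580 genes listed, among them the widely used kinase gene MAPK3. The hormone-like FGF23, the coreceptor KL, FGF6 and FGF12 were above 0 and below the filter, with at most 1.20 FPKM in any library. Of the others not described singly below, FGF11, an intracellular FGF, ranged from 5.01 to 12.8 FPKM, FGF21 from 0.430 to 3.01, SPRY3 from 0 to 1.06 and FGF5 from 0 to 3.17 FPKM. FGF5 had no more than 4 reads in any library.

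**Figure D1:**
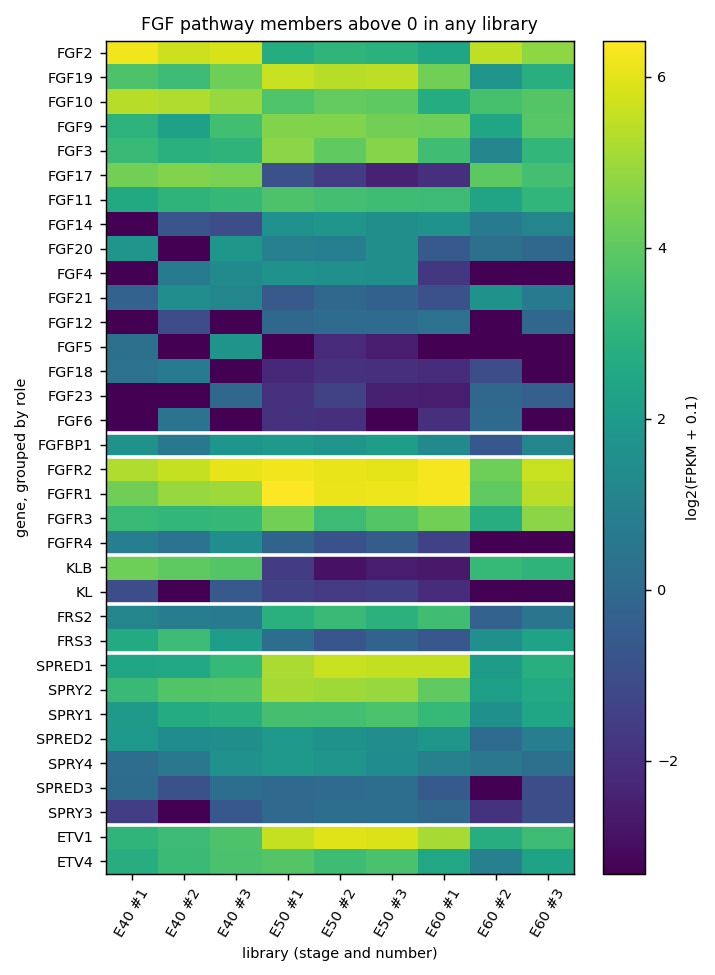
Level of each of the 34 detected genes, as log2(FPKM + 0.1), in each of the 9 libraries; white lines divide the genes by role. FGF2, FGF10 and FGF17 lead the ligands at E40, FGF19, FGF3 and FGF9 at E50, and the columns of E60 library 1 look more like E50 than like the other E60 libraries.

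By mean level, FGF2 led the ligands at E40 and in E60 libraries 2 and 3, and FGF19 led at E50 and in E60 library 1, so that the leading ligand differed between the depth sets and not between the stages within them. FPKM is per length, so that the order of different genes depends on the length used for each. In E40 library 1, 1 read was worth 1.98 FPKM of FGF2, 1.61 of FGF19 and 0.345 of FGF10. In reads FGF10 was above both FGF2 and FGF19 in every library, so that the order below holds for FPKM only. At E40 the mean was highest for FGF2, with 61.2 ± 12.4 FPKM (SD, n = 3), followed by FGF10 with 36.8 ± 6.05 and FGF17 with 21.9 ± 1.91. The FGF2 level rests on 38, 29 and 41 reads at E40, and reads shared with the overlapping gene NUDT6 cannot be told apart, as given below. At E50 it was highest for FGF19, with 44.3 ± 3.65 FPKM (SD, n = 3), followed by FGF3 with 22.8 ± 5.57 and FGF9 with 22.8 ± 2.06, which did not differ beyond their spread. At E60, library 1 was led by FGF19 and FGF9, at 20.4 and 19.0 FPKM, while libraries 2 and 3 were led by FGF2 with a mean of 35.9 FPKM and by FGF17 with a mean of 13.4 FPKM.

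Among the enamel knot ligands, FGF4 was the one with the widest gap between the early and the late bell stage. It had 3.07, 2.89 and 2.80 FPKM in the E50 libraries, from 28, 30 and 25 reads, and 0.200 FPKM from 2 reads in E60 library 1. From these reads, scaled by the relative FPKM divisor of each library, E60 library 1 held 6.83% of the E50 level, with an exact 95% interval of 0.813% to 25.5% that covers counting error only. At E40 it had 0, 1.53 and 2.43 FPKM from 0, 1 and 2 reads, and E60 libraries 2 and 3 had none. There 3 reads would be worth 3.50 and 2.74 FPKM, so that the E50 mean of 2.92 FPKM was below that floor in library 2 and just above it in library 3. FGF20, which acts downstream of ectodysplasin in mice, had 1.79, 1.76 and 2.68 FPKM at E50 and 0.574 FPKM in E60 library 1, or 27.9% of E50 (exact 95% interval 9.84% to 64.2%). No shallow library had more than 3 reads of FGF20, with 3.29, 0 and 3.50 FPKM at E40 and 1.12 and 0.876 FPKM in E60 libraries 2 and 3. FGF9, which signals from epithelium to mesenchyme, had 7.80, 4.64 and 11.1 FPKM at E40, 24.1, 23.8 and 20.4 at E50, and 19.0, 5.30 and 14.6 at E60. As deposited all E50 libraries lay above all others for FGF9, while the E40 and E60 libraries overlapped. From E50 to E60 FGF9 was not called over all 9 libraries (log2 fold change -0.99, adjusted p = 0.194, limma). With median-ratio scaling the change was -0.22 (adjusted p = 0.678, limma).

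The ligands FGF3 and FGF10 of the dental mesenchyme followed different courses. FGF10 had 41.7, 38.7 and 30.0 FPKM at E40, 13.4, 16.8 and 16.2 at E50, and 6.45, 11.9 and 14.0 at E60. Every E40 library was above every later one, and E60 library 1 was the lowest of all 9. FGF3 had 9.64, 7.17 and 7.97 FPKM at E40, 26.7, 16.4 and 25.3 at E50, and 10.7, 2.18 and 8.56 at E60. In FPKM as deposited it was thus highest at E50 in every library, and E60 library 1 held 47.3% of the E50 level (exact 95% interval 38.4% to 57.7%). The E40 values of FGF3 rest on 6, 5 and 7 reads. Over all 9 libraries its rise to E50 was not called by limma (log2 fold change 1.43, adjusted p = 0.0711). With median-ratio scaling the rise was 0.78 (adjusted p = 0.121, limma). FGF19, the bile acid hormone of the gut and an embryonic ligand elsewhere, was also highest at E50. It had 12.9, 10.1 and 19.4 FPKM at E40, 48.3, 41.2 and 43.4 at E50, and 20.4, 3.29 and 6.88 at E60. FGF3, FGF4 and FGF19 stand next to each other in the RefSeq annotation of the Sscrofa11.1 assembly, with 0 protein-coding genes between them, and all 3 had lower listed values in each E60 library than in every E50 library. FGF14, an intracellular FGF that binds sodium channels, had 0, 0.488 and 0.387 FPKM at E40, 2.94, 3.32 and 2.71 at E50, and 3.05, 1.49 and 2.04 at E60. Each later library was above each E40 library, where FGF14 had at most 1 read. FGF18 had at most 5 reads in any library, with 1.17, 1.57 and 0 FPKM at E40, 0.113, 0.165 and 0.153 at E50, and 0.136, 0.398 and 0 at E60, so that its course was not detectable at this depth.

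**Figure D2:**
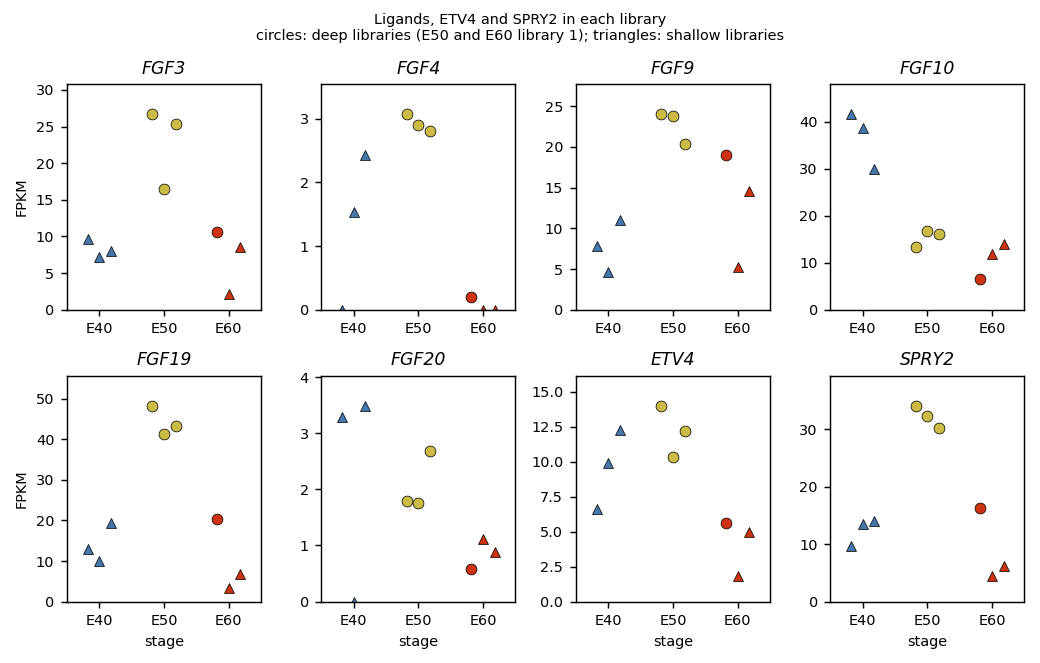
FPKM of 6 ligands, ETV4 and SPRY2 in each of the 9 libraries by stage; circles are the deep libraries and triangles the shallow ones. In FPKM as deposited, FGF10 is highest in all E40 libraries, the other panels except FGF20 and ETV4 are highest at E50, and the E60 circle lies below all E50 circles in every panel.

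The first comparison asks which of these genes differ between the cap and the early bell stage. By limma with Benjamini-Hochberg adjustment over all 9 libraries, where the adjusted p had to be below 0.05 and the levels 1 log2 unit or more apart, 12 of the 30 genes tested (40.0%) were called. Of these 7 were higher and 5 lower at E50. Of all 19618 genes tested 38.6% were called, 16.8% higher and 21.8% lower, so that the share among the FGF genes was near the background. The median log2 fold change was 0.63 for the 30 genes and 0.55 for all genes. All fold changes are of log2(FPKM + 0.1), so that those of low genes, and above all of genes with a library at 0, depend on the added 0.1 and are no bounds. The genes that rose were the ligands FGF9 (log2 fold change 1.61, adjusted p = 0.0386) and FGF19 (1.69, adjusted p = 0.0495), the intracellular FGF14 (3.33, adjusted p = 0.0139), the receptor FGFR1 (1.49, adjusted p = 0.0499), the inhibitors SPRED1 (2.75, adjusted p = 0.0248) and SPRY2 (1.38, adjusted p = 0.0461), and ETV1 (2.43, adjusted p = 0.0152), all by limma. FGF14 had 2 reads in all at E40 and 268 at E50, a ratio in level of 9.71 with an exact 95% interval of 2.66 to 80.6 that covers counting error only. Those that fell were FGF2 (log2 fold change -3.04, adjusted p = 0.0133), FGF10 (-1.24, adjusted p = 0.0301), FGF17 (-6.11, adjusted p = 0.0133), FRS3 (-2.95, adjusted p = 0.0206) and KLB (-6.38, adjusted p = 0.0130), by the same test. Over the 8 libraries the same 12 passed, and FGF3, FRS2 and SPRY1 rose as well, making 15, of which 10 rose and 5 fell, against a background of 54.6%, 30.5% higher and 24.2% lower.

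The balance of rises and falls in this comparison depended on the scaling. With median-ratio scaling of all 9 libraries the median of all genes moved from 0.55 to -0.09, and 4 of the 30 genes rose and 5 fell, against a background of 37.1%. FGF9, FGFR1 and SPRY2 then had log2 fold changes of 0.95, 0.83 and 0.72, under the limit. With the scaling over the 8 libraries 5 rose and 7 fell, against a background of 43.7%, 15.9% higher and 27.8% lower. No FGF gene passed without E40 library 1, E50 library 2 or E50 library 3, where 10, 13 and 12 had an unadjusted p under 0.05 by limma. Of all genes 1.09%, 0.297% and 0.297% passed there. Without E40 library 2 or E50 library 1, 6 FGF genes each passed, against 17.1% and 17.6% of all genes.

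Of 22 FGF genes with E40 and E50 means at least 1 log2 unit apart, 11 took the side of their depth set at E60, in that library 1 was nearer to E50 and libraries 2 and 3 were nearer to E40. Of all genes tested with such a gap 66.9% did. The widest splits were those of KLB, the coreceptor for FGF19 and FGF21, and of FGF17. KLB had 19.4, 15.8 and 14.0 FPKM at E40, 0.236, 0.0377 and 0.0656 at E50, and 0.0585, 9.11 and 8.04 at E60. FGF17, a close relative of FGF8, had 20.1, 23.9 and 21.8 FPKM at E40, 0.428, 0.226 and 0.0874 at E50, and 0.156, 15.5 and 11.4 at E60. In reads, FGF17 had 15, 20 and 23 at E40 and 17 and 16 in E60 libraries 2 and 3, against no more than 5 in any of the far deeper libraries. FGF2, a heparin-binding ligand without a secretion signal, had 75.1, 51.1 and 57.4 FPKM at E40, 6.45, 8.11 and 7.36 at E50, and 5.40, 44.3 and 27.4 at E60. For all 3 genes both shallow E60 libraries were above every deep library, whatever its stage, and below every E40 library.

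Overlapping genes bear on how these values can be read. FGF2 overlaps NUDT6, which is transcribed from the other strand, in the RefSeq annotation, and NUDT6 had 133, 107 and 97.1 FPKM at E40, 11.8, 13.0 and 13.5 at E50, and 11.9, 71.2 and 47.1 at E60. Both genes thus split the E60 libraries in the same way. KLB overlaps the ribosomal protein gene RPL9, whose course was a different one, with 421 to 602 FPKM at E40, 800.5 to 1157 at E50, 882 in E60 library 1 and 222 and 484 in libraries 2 and 3. Other FGF genes overlap annotated genes as well. FGF11 overlaps the protein-coding TMEM102 and SPRED1 the protein-coding LOC106506784, while FRS2, ETV1 and SPRY1 overlap pseudogenes and FGF10 a long noncoding RNA gene. The libraries were prepared with a directional kit, but whether strand was used in counting is not given in the sources used here, so reads shared between overlapping genes cannot be told apart.

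The adaptors FRS2 and FRS3, which dock RAS activators to the receptors, split in opposite directions. FRS3 had 6.12, 10.1 and 4.34 FPKM at E40, 1.05, 0.503 and 0.768 at E50, and 0.520, 2.88 and 4.77 at E60. FRS2 had 2.14, 1.59 and 1.51 FPKM at E40, 7.14, 9.47 and 7.56 at E50, and 10.8, 0.726 and 1.33 at E60. FRS3 was thus the more abundant adaptor in every shallow library and FRS2 in every deep one. SPRED1, an inhibitor of RAS activation, split like FRS2, with 5.17, 5.60 and 9.04 FPKM at E40, 36.7, 49.2 and 45.7 at E50, and 45.7, 4.02 and 6.79 at E60.

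**Figure D3:**
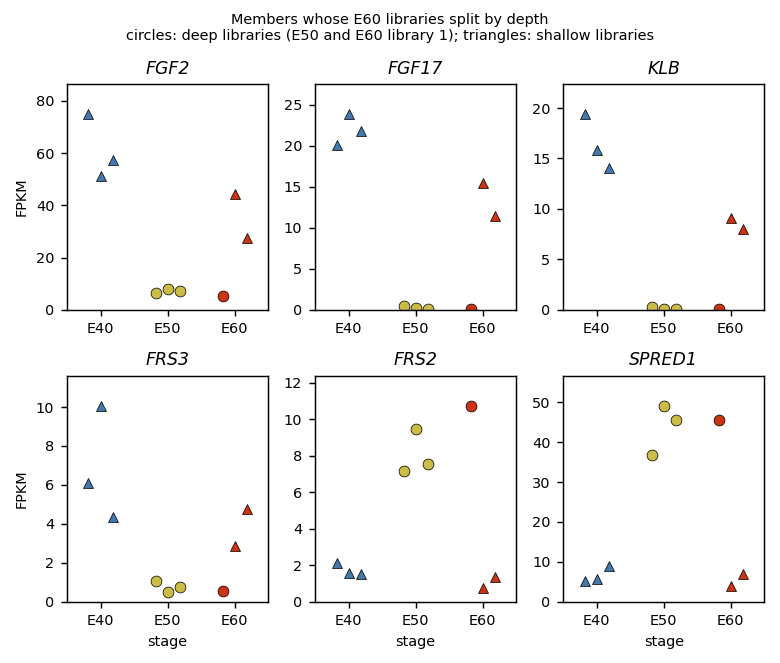
FPKM of FGF2, FGF17, KLB, FRS3, FRS2 and SPRED1 in each of the 9 libraries by stage, with circles for the deep libraries and triangles for the shallow ones. At E60 the circle lies with the E50 libraries and both triangles lie towards the E40 libraries in all 6 panels.

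FGFR1 and FGFR2 were the main receptors at every stage. FGFR1, expressed in the mesenchyme of many organs, had 19.8, 30.2 and 32.0 FPKM at E40, 85.8, 70.2 and 71.5 at E50, and 79.0, 16.4 and 42.9 at E60. FGFR2, whose epithelial isoform binds FGF3 and FGF10, had 38.5, 47.8 and 65.9 FPKM at E40, 74.7, 67.6 and 64.6 at E50, and 77.5, 19.2 and 48.1 at E60. The values are per gene, so the epithelial and mesenchymal isoforms are not separated. In FPKM, FGFR2 was above FGFR1 in all E40 libraries and FGFR1 above FGFR2 in the deep libraries, whereas in E60 libraries 2 and 3 FGFR2 was again the higher. This order depends on the length used for each gene, since 1 read in E40 library 1 was worth 0.939 FPKM of FGFR2 and 0.287 of FGFR1. In reads FGFR1 was above FGFR2 in every library, with 69, 118 and 157 against 41, 57 and 99 at E40. FGFR3 had 9.67, 8.63 and 8.92 FPKM at E40, 20.3, 10.2 and 14.0 at E50, and 20.1, 6.58 and 26.3 at E60. As deposited every E40 library was below every E50 library, while the E60 libraries overlapped both. From E40 to E50 FGFR3 was not called over all 9 libraries (log2 fold change 0.65, adjusted p = 0.325, limma). With median-ratio scaling the change was -0.0077 (adjusted p = 0.988, limma).

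Shares of the summed FPKM of FGFR1 to FGFR4 do not depend on scaling between libraries, but their size depends on the length used for each gene. By these shares FGFR1 rose from 28.4%, 34.4% and 29.2% at E40 to 47.2%, 47.3% and 47.4% at E50. It was at 44.6%, 38.9% and 36.6% at E60, between the other stages in every library. FGFR2 made up 55.3%, 54.4% and 60.2% at E40, 41.2%, 45.5% and 42.8% at E50, and 43.8%, 45.5% and 41.0% at E60. FGFR3 made up 13.9%, 9.83% and 8.15% at E40, 11.2%, 6.89% and 9.30% at E50, and 11.4%, 15.6% and 22.4% at E60. FGFR4 made up 2.42%, 1.37% and 2.40% at E40, 0.428%, 0.306% and 0.423% at E50, and 0.155%, 0% and 0% at E60. A two-sided exact permutation test of 3 against 3 libraries cannot go below p = 0.1, which it reached for FGFR1 and FGFR4 in all 3 comparisons, for FGFR2 from E40 to either later stage, and for FGFR3 from E50 to E60. The adjusted p over the 12 tests of the 4 receptors was 0.133 for each of these by the exact test, so that none passed. The FGFR3 share did not separate E40 from E50 or from E60 (exact permutation p = 0.6 and 0.2), nor the FGFR2 share E50 from E60 (exact permutation p = 1), since the libraries overlapped. Within the depth sets the FGFR1 share was below all E50 libraries in E60 library 1 and above all E40 libraries in E60 libraries 2 and 3.

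**Figure D4:**
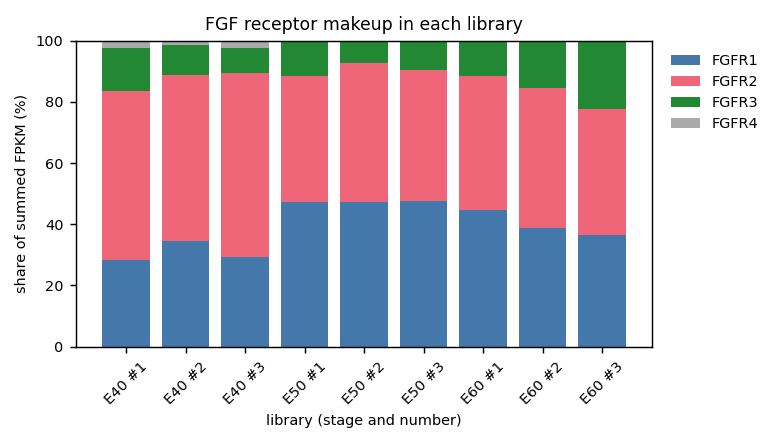
Share of each receptor, in percent of the summed FPKM of FGFR1 to FGFR4, in each of the 9 libraries. FGFR2 makes up over 54% in the E40 libraries and FGFR1 about 47% in the E50 libraries, and FGFR4 is the smallest share in each library.

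FGFR4, which pairs with KLB as the receptor for FGF19 in liver, was the rarest receptor, with its lowest values at E60 in both depth sets. It had 1.69, 1.20 and 2.63 FPKM at E40, from 5, 4 and 11 reads, and 0.777, 0.455 and 0.639 FPKM at E50, from 36, 24 and 29 reads. E60 library 1 had 0.275 FPKM from 14 reads, or 44.6% of the E50 level (exact 95% interval 23.4% to 78.8%), and E60 libraries 2 and 3 had no read. Against the floor of 3 reads per library, 0.687 FPKM in the shallower coverage of E60 library 2, E60 libraries 2 and 3 were at least 2.68-fold lower than the E40 mean of 1.84 FPKM. The E50 mean of 0.624 FPKM is under that floor, so those libraries give no bound against E50.

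SPRY2, a feedback inhibitor, had 9.69, 13.6 and 14.1 FPKM at E40, 34.2, 32.3 and 30.2 at E50, and 16.2, 4.39 and 6.15 at E60. No libraries of different stages overlapped within a depth set, and E60 was the lower stage in both for SPRY2. SPRY1 had 3.64, 6.32 and 7.03 FPKM at E40, 11.7, 11.2 and 12.6 at E50, and 9.04, 2.89 and 5.28 at E60, with an overlap between E40 and E60 in the shallow set. SPRY4 had 1.03, 1.38 and 2.91 FPKM at E40, 3.72, 3.27 and 2.55 at E50, and 1.79, 1.40 and 1.10 at E60, from at most 8 reads in any shallow library. SPRED2 overlapped between E40 and E50, with 3.58, 2.56 and 2.79 FPKM at E40, 3.58, 3.14 and 2.67 at E50, and 3.48, 0.974 and 1.72 at E60. SPRED3 was near 1 FPKM or below throughout, with 0.978, 0.437 and 1.04 at E40, 0.908, 0.949 and 1.04 at E50, and 0.583, 0 and 0.391 at E60. FGFBP1, an epithelial carrier that frees FGF ligands from heparan sulfate, had 3.15, 1.41 and 3.35 FPKM at E40, 3.73, 3.32 and 4.22 at E50, and 2.38, 0.535 and 2.10 at E60.

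The target transcription factors ETV1 and ETV4 also differed from each other. ETV4 had 6.64, 9.88 and 12.2 FPKM at E40, 14.0, 10.3 and 12.2 at E50, and 5.64, 1.81 and 4.96 at E60. Every E60 library was below every earlier one for ETV4, while E40 and E50 overlapped. ETV1 had 8.22, 10.1 and 13.1 FPKM at E40, 47.7, 60.8 and 60.0 at E50, and 35.8, 6.65 and 10.1 at E60. Its E60 libraries lay below E50, but libraries 2 and 3 overlapped those of E40.

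The second comparison is that of the early with the late bell stage. Over all 9 libraries none of the 30 FGF genes passed by limma with Benjamini-Hochberg adjustment or by limma-voom on the recovered reads, while 11 had an unadjusted p under 0.05 by each of the tests. Of all genes 0.0714% passed by limma and 0.719% by limma-voom. Without E60 library 1 all E60 libraries are shallow and all E50 libraries deep, so that stage and set cannot be told apart in this comparison either. Over these 8 libraries 21 passed, 4 higher and 17 lower at E60, against a background of 59.1%, 20.0% higher and 39.1% lower. The 4 that rose over the 8 were KLB, FRS3, FGF2 and FGF17, all of which split by depth set, and none of which was above its highest E50 library in E60 library 1. Of the 17 that fell, FRS2, FGFR1, ETV1, SPRED1 and SPRY1 split by depth set as well. The 17 included FGF19 (log2 fold change -3.19, adjusted p = 0.000196), SPRY2 (-2.61, adjusted p = 9.41e-05), ETV4 (-1.97, adjusted p = 0.00506) and FGF3 (-2.33, adjusted p = 0.00471), all by limma. With median-ratio scaling of the 8 libraries 5 rose and 8 fell, against a background of 38.2%, of which 25.4% rose and 12.8% fell, and ETV4 was then under the limit at -0.92.

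The differences within the depth sets share no library with each other, and they were chosen after seeing the data. For the shallow set the spread came from a fit of all 9 libraries, the E50 libraries among them. Its p-values are therefore not independent of the deep set. In the deep set, where E60 is 1 library whose spread is assumed to be that of E50, 6 of the 22 FGF genes tested were called by limma with Benjamini-Hochberg adjustment, all lower in E60 library 1. Of 14499 genes tested there 5.74% were called, and 2.88% were called lower. The 6 were FGF4 (log2 fold change -3.33), FGF20 (-1.67), FGF10 (-1.24), FGF19 (-1.11), ETV4 (-1.09) and FGF3 (-1.06). This fit leaves out counting error, and FGF4 had 2 reads in E60 library 1. SPRY2 fell just short of the fold limit at -0.98 (adjusted p = 0.00551, limma). By limma-voom on the recovered reads SPRY2 was called (-1.02, adjusted p = 0.00261) and FGF20 was not (-1.77, adjusted p = 0.10). With median-ratio scaling FGF3 was not called, at -0.99 (adjusted p = 0.00887, limma). FGFR1, FGFR2 and FGFR3 were not called, with log2 differences of 0.06 for FGFR1 (standard error 0.27), 0.17 for FGFR2 (0.27) and 0.49 for FGFR3 (0.26), and FGFR4 did not pass the filter there. The median was -0.40 for the 22 genes and -0.06 for all genes tested. None was called when the spread was instead shared with the shallow libraries, where 3 had an unadjusted p under 0.05 by limma and 0.107% of all genes were called.

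In the shallow set 3 of 30 were called, all lower in E60 libraries 2 and 3 than at E40, against a background of 5.89%, or 4.48% for lower genes. They were FGF10 (log2 fold change -1.49, standard error 0.24, adjusted p = 0.0140), SPRY2 (-1.22, standard error 0.27, adjusted p = 0.0359) and FGFR4 (adjusted p = 0.00866), by limma with Benjamini-Hochberg adjustment. For FGFR4 the bound given above stands in for the fitted fold, because both E60 libraries were at 0. The adjusted p of FGFR4 depends on the added 0.1 as well, here and for the mean of both sets. The same 3 genes were called for the mean of both sets, against a background of 1.84% by the same test, or 1.13% for lower genes, with FGF10 at -1.37 (adjusted p = 0.0161) and SPRY2 at -1.10 (adjusted p = 0.0459). With median-ratio scaling the mean of both sets called FGFR4 and FGF19 (-1.03, adjusted p = 0.0313, limma), against a background of 2.43%, or 0.872% for lower genes, while FGF10 was at -1.08 with an adjusted p of 0.0519 and SPRY2 at -0.83, under the fold limit. Without E50 library 2 or E50 library 3 no gene was called for the mean of both sets, with 7 and 6 at an unadjusted p under 0.05 by limma, and without E60 library 3 the number was 7.

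Without regard to the spread, 7 of the 30 genes had no overlap and were lower at E60 in both sets, namely FGF2, FGF10, FGF19, FGFR4, SPRY2, SPRED3 and ETV4. Of all genes tested 12.4% did so. With median-ratio scaling 6 of the 30 did, without FGF2, against 6.16% of all genes. No FGF gene was higher at E60 without overlap in both sets as deposited, against 3.29% of all genes, and with the scaling FGFR3 was, against 8.88%. The 6 lower genes were thus among the 7 found without the scaling. Among them, SPRED3 had 4, 2 and 6 reads at E40 and 0 and 3 reads in E60 libraries 2 and 3. Its gap in the shallow set therefore rests on few reads.

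**Figure D5:**
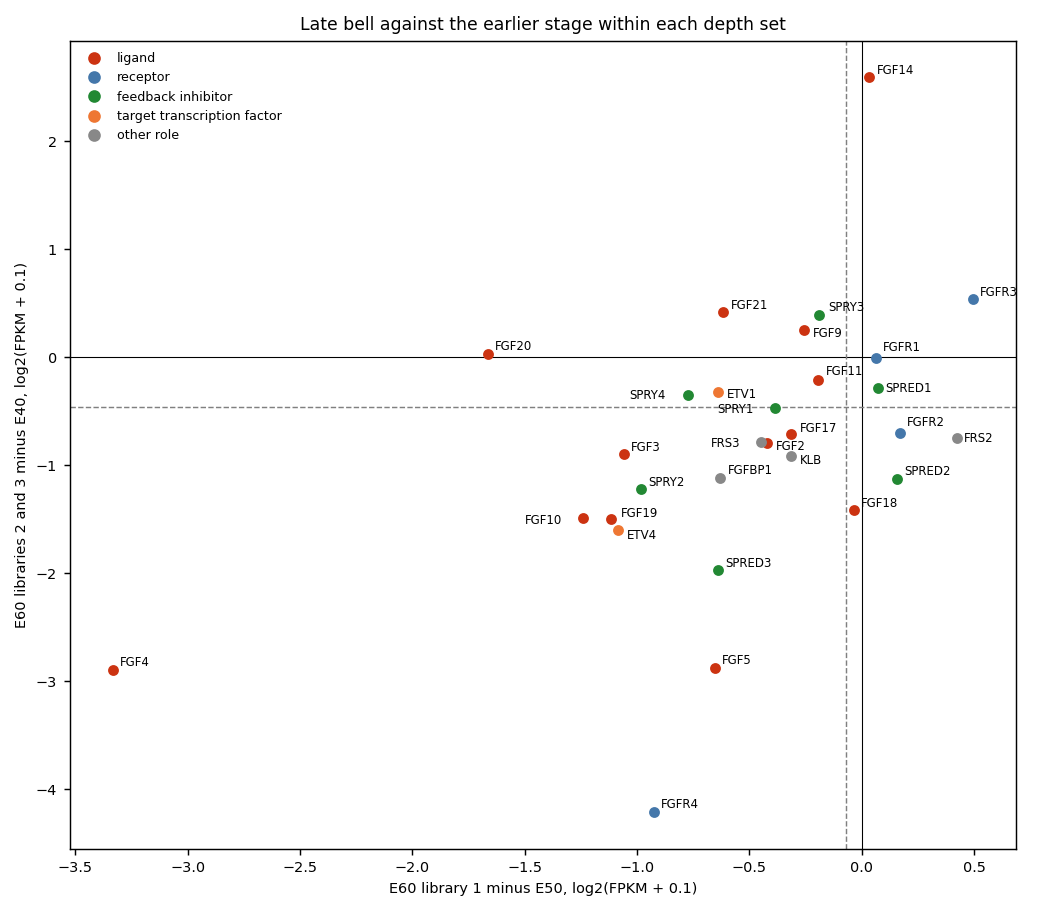
Log2 difference in level, on the log2(FPKM + 0.1) scale, between E60 library 1 and the E50 mean (x axis) and between E60 libraries 2 and 3 and the E40 mean (y axis) for the 30 genes tested, with dashed lines at the medians of all genes. FGF10, FGF19, ETV4 and SPRY2 lie at about -1 or below on both axes, whereas FGFR1 and FGFR3 lie near 0 or above it on both. FGF4, FGF5, FGF18, FGFR4 and SPRED3 rest on few reads in the shallow libraries.

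The third comparison, of the cap with the late bell stage, called 1 of the 30 genes over all 9 libraries by limma with Benjamini-Hochberg adjustment, against a background of 1.80%, or 1.14% for lower genes. This was FGF10, whose level fell by 1.82 on the log2 scale (standard error 0.37, adjusted p = 0.0462, limma). With median-ratio scaling its log2 fold change was -1.70 (adjusted p = 0.137, limma) and FGFR4 was the gene called. FGF10 passed in no fit that left out an E40 library, an E50 library or E60 library 3, whereas without E60 library 2 both FGF10 and FGFR4 passed. Over the 8 libraries FGF10, SPRY2 and FGFR4 passed, against a background of 6.06%, or 4.68% for lower genes. The median log2 fold change was -0.57 for the 30 genes and -0.22 for all genes over the 9 libraries.

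Other genes of the pathway were followed in 3 lists, of receptor-proximal and RAS-MAPK transduction, of further feedback and early-response genes, and of heparan sulfate synthesis and editing. Together 54 of them were listed and 49 tested. From E40 to E50, 10 of the 49 passed over all 9 libraries by limma with Benjamini-Hochberg adjustment, 8 higher and 2 lower, against the background of 38.6%. Over the 8 libraries 25 passed, 23 higher and 2 lower, against 54.6%, and with median-ratio scaling 10, of which 7 were higher and 3 lower, against 43.7%. By list, 5 of 20 transduction genes, 4 of 17 feedback and early-response genes and 1 of 12 heparan sulfate genes passed over the 9. The median log2 fold change of the 49 was 1.04 against 0.55 for all genes. The early-response factor FOS had 0, 1.66 and 2.64 FPKM at E40, 14.0, 12.1 and 13.0 at E50, and 4.77, 1.27 and 0.994 at E60. The kinase RPS6KA3 had 2.90, 1.55 and 4.53 FPKM at E40, 17.6, 25.2 and 18.5 at E50, and 25.2, 4.34 and 4.33 at E60, and so split by depth set. The genes that fell were MAP2K1, the MEK1 kinase, with a log2 fold change of -1.32 (adjusted p = 0.0204, limma), and the adaptor SHC1 with -1.12 (adjusted p = 0.0397, limma).

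From E50 to E60 none of the 49 passed over all 9 libraries by limma, with 17 at an unadjusted p under 0.05, and 1 passed by limma-voom. Over the 8 libraries 33 passed, all lower at E60, against the background of 59.1%, or 39.1% for lower genes. With median-ratio scaling 9 passed, against 38.2%, of which 6 were lower and 3 higher. The higher genes were MAP2K1 (1.85, adjusted p = 0.000927), SHC1 (1.57, adjusted p = 0.000486) and the RAS inactivator RASA1 (1.36, adjusted p = 0.0154), by limma, named after their values were seen. In the deep set 3 of 49 (6.12%) were called, all lower, against the background of 5.74%, or 2.88% for lower genes, so that the share was near the background. These were FOS (log2 fold change -1.43, adjusted p = 1.1e-05), the early-response factor EGR1 (-1.60, adjusted p = 0.00236) and the ERK phosphatase DUSP4 (-1.76, adjusted p = 1.06e-07), all by limma. All 3 are in the list of feedback and early-response genes, and the medians of the transduction and heparan sulfate genes were 0.06 and -0.17 there, against -0.06 for all genes. EGR1 had 0, 1.20 and 1.91 FPKM at E40, 2.46, 2.20 and 2.04 at E50, and 0.666, 0.229 and 0.179 at E60. DUSP4, named after its values were seen, had 5.83, 7.16 and 8.79 FPKM at E40, 10.2, 9.43 and 10.1 at E50, and 2.86, 2.81 and 2.98 at E60. Every E60 library was below every earlier one for DUSP4, and in the shallow set it fell by 1.28 on the log2 scale (adjusted p = 0.0332, limma), which with median-ratio scaling became -0.85 with an adjusted p of 0.115 by the same test. From E40 to E60, none of the 49 passed over all 9 libraries by limma, with 4 at an unadjusted p under 0.05 and 1 by limma-voom, and 2 passed over the 8.

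IL17RD, a membrane inhibitor of FGF receptor signaling also called SEF, had 27.6, 25.5 and 30.5 FPKM at E40, 80.1, 77.0 and 68.5 at E50, and 50.3, 16.4 and 24.1 at E60. It rose from E40 to E50 (log2 fold change 1.43, adjusted p = 0.0269, limma), but with median-ratio scaling was under the fold limit at 0.77, and E60 was the lower stage without overlap in both depth sets as deposited, while with the scaling its E40 and shallow E60 libraries overlapped. SULF1, which trims heparan sulfate and so tunes FGF binding, had 50.7, 52.7 and 69.0 FPKM at E40, 108, 111 and 108 at E50, and 76.0, 19.0 and 36.8 at E60. Its E60 libraries were below the earlier stage of the same set as well. SULF2 had 7.38, 11.1 and 10.9 FPKM at E40, 13.3, 9.71 and 11.1 at E50, and 12.8, 5.79 and 10.3 at E60, with overlapping libraries in both sets.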

How the data were processed

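Total RNA of miniature pig tooth germs was rRNA-depleted and sequenced from directional libraries. The authors aligned the reads by TopHat, and the deposited table holds 1 FPKM value per gene and library for 9 libraries, with no further scaling stated. The submitters' processing notes name the build Sscrofa10.2, and the counting program and use of strand are not given in the sources used here. Stages came from the labels. Since each gene's FPKM is a multiple of the worth of 1 read, whole reads could be recovered, in every library, for 28960 of the 28963 genes above 0. When reads were simulated for 3970 genes, every read number was recovered exactly for 97.9% of them. The filter kept genes with at least 1 FPKM in 2 libraries. limma 3.58.1 (R 4.3.3) was run on log2(FPKM + 0.1), with a mean-variance trend and a coefficient per stage. For the shallow set and the mean of both sets all 9 libraries were fitted, with E60 library 1 as a group of its own. The fit with a coefficient per stage was tried on simulated data without depth sets, which cannot show how it behaves with them. Receptor shares were compared by exact permutation tests (scipy 1.17.1). The RefSeq table of Sscrofa11.1, which matched all 38 genes by symbol, gave neighbours and overlaps only. Named were the receptors, listed molar ligands, inhibitors and ETV factors, every other FGF gene called over 9 or 8 libraries, and in the 3 lists the 2 largest called changes in each direction, with IL17RD, EGR1, FOS, SULF1 and SULF2. The members and lists were chosen with earlier results of these data known. Alternatives were scaling, pseudocounts, filters, a replicate block, limma-voom, fits of only the stages compared and leaving out libraries. The comparisons within depth sets, and the alternatives over the 8 libraries other than the scaling, were chosen after seeing the data.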

Additional observations from a re-analysis of the deposited data

How the results depend on the processing

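In a shallow library 3 reads of FGF4 are worth more or nearly as much as its E50 level. Depth also limits FGF5, FGF14, FGF18, FGF20, FGFR4 and SPRED3. Below, numbers are of the 30 FGF genes called and, after them, of the 49 pathway genes called. Where a number moved, the cause was not tested.

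Leaving out 1 library at a time gave 0 to 15 FGF genes and 0 to 25 pathway genes from E40 to E50, against 12 and 10 over all 9. In these fits 0.297% to 54.6% of all genes were called. From E50 to E60 leaving out 1 library gave 0 to 21 and 0 to 33, against 0 and 0, with 0.0205% to 59.1% of all genes called. The highest of these numbers are those without E60 library 1. From E40 to E60 leaving out 1 library gave 0 to 3 and 0 to 2, against 1 and 0, with 0.655% to 6.11% of all genes called. For the mean of both depth sets it gave 0 to 7 FGF genes, against 3. The FGFR3 share of the receptors differed between E40 and E50 by -2.74 to 0.128 percentage points, and the FGFR2 share between E50 and E60 by -0.773 to 1.46, so that both changed sign, as the latter did without E50 library 1 at -0.754.

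From E40 to E60, the number of FGF genes was 2 with a pseudocount of 1, 0 with 0.01, 0 without the filter, 0 with only the stages compared and 5 by limma-voom. Of all genes 3.55%, 1.13%, 1.11%, 0.142% and 14.4% were called in the same order. Over the 8 libraries the number of FGF genes was 2 with median-ratio scaling, 2 by limma-voom and 0 with only the stages compared. Of all genes 4.9%, 3.85% and 1.3% were called in the same order. From E40 to E60 limma-voom called 1 pathway gene over either set. From E50 to E60 the 8 libraries gave 13 FGF and 9 pathway genes with median-ratio scaling, 16 and 24 by limma-voom, and 21 and 35 with only the stages compared. The shares of all genes were 38.2%, 54.1% and 68.1% in the same order. Over the 9, limma-voom called 1 pathway gene and 0.719% of all genes. From E40 to E50, 26 pathway genes passed with only the stages compared over either set and 16 by limma-voom over the 8. Of all genes 58.5% and 55.3% passed there. In the deep set the number was 0 with the spread shared with the shallow libraries, and limma-voom gave 6 for the mean of both sets.

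The same library numbers recur at each stage, but same-numbered libraries did not deviate together, with correlations from -0.515 to 0.109 over 9 pairs, so the samples share only a number. With the number as a replicate block, 8 FGF and 4 pathway genes passed from E40 to E50 and 0 FGF genes from E40 to E60. Over the 8 libraries the block gave 25 pathway genes from E40 to E50 and 19 FGF and 34 pathway genes from E50 to E60. The 13 changes of single FGF genes called over the 9 libraries kept their direction under each of these alternatives, and 4 missed the threshold with median-ratio scaling, 5 without the filter, 5 with the block and 3 by limma-voom.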
